A study of Mus musculus with 20 samples.

Results

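Klf4 and Klf2 encode Krüppel-like zinc finger transcription factors that help to hold mouse embryonic stem (ES) cells in the pluripotent state, and Klf4 is one of the classical reprogramming factors. Sox2 and Oct4 (Pou5f1) often bind together at a composite DNA element in enhancers of pluripotency genes, Klf genes among them. Sox17 is a regulator of primitive endoderm, an extraembryonic lineage of the early embryo. The regions described here were the peaks of all 18 deposited lists whose midpoint fell in a 160 kb window of chromosome 4 around Klf4 (chr4:55440000-55600000, mm9) or a 110 kb window of chromosome 8 around Klf2 (chr8:74790000-74900000). Of 765133 peaks in all lists, 214 lay in the Klf4 window and 166 in the Klf2 window, 380 together.

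Binding was measured by chromatin immunoprecipitation and sequencing (ChIP-seq). KH2 ES cells carried a doxycycline-inducible, V5-tagged Sox2KE, Sox2, Sox17EK or Sox17, with doxycycline at 1 µg/ml in all ES groups. Sox2 has a lysine where Sox17 has a glutamate, and each mutant has the residue of the other protein. Sox17EK and Sox2 are therefore called lysine proteins, and Sox2KE and Sox17 glutamate proteins. Cells of the F9 embryonal carcinoma line were treated with 1 µM retinoic acid (RA), which drives them toward primitive endoderm-like cells, or left untreated. Sox binding in ES cells was mapped by 8 libraries (A and B for each protein), and Oct4 was mapped in the same ES lines by 7 libraries (A and B in each, but A alone in the Sox17 line). The F9 libraries were Oct4 after RA, Oct4 without RA, and Sox17 after RA, 1 of each. The Sox2KE, Sox2 and Sox17EK libraries name the V5 antibody alone, whereas the Sox17 libraries of ES cells name Sox17 and V5, so protein and antibody cannot be told apart for Sox17. Each protein was studied in 1 line, no label says that A and B were separate cultures, and p-values therefore measure only the spread between these libraries, which may be technical. Peak lists hold no RNA or marker values, so the labelled cell types could not be checked here.

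The lists differed in length, between 5836 peaks (Sox17 B in ES cells) and 84196 peaks (Oct4 in F9+RA cells), and read depth was unknown. Scores, the authors' own value per peak, were therefore read within a list only. Peaks were ranked within each list by score, with rank 1 the strongest, and "among the strongest" means within the top 5836, the length of the shortest list. Ranks beyond that, and missing peaks, were set to 5837 for tests. A library without a peak in a short list may still have weak signal that the list does not reach.

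Peaks of different lists that overlapped by at least 1 bp formed 59 sites, 38 at Klf4 and 21 at Klf2. Of these, 28 were seen in 1 library only, 15 in 2 to 5, and 16 in 6 or more (10 at Klf4, 6 at Klf2). A library had a median of 11 peaks in the Klf4 window (3 to 21) and 8.5 in the Klf2 window (2 to 18). Any peak among the strongest was found at 11 of the 59 sites, 7 at Klf4 and 4 at Klf2. Because overlap chains neighbouring peaks into 1 site, single elements are described below by an anchor, the midpoint of the best-ranked peak, and a library holds an element when its peak covers that anchor. This gave 15 elements at Klf4 and 11 at Klf2 held by 6 or more libraries. Distances are in kb from the approximate gene start (Klf4 at 55.545 Mb on the minus strand, Klf2 at 74.843 Mb), positive downstream.

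The promoter sequences of both genes are shown because peaks of Oct4, and of Sox17 in part, covered both gene starts. They come from RefSeq (GRCm38.p6, 250 bases before to 50 after the start), a different build from the mm9 positions of the peaks, so coordinates of the 2 builds must not be compared. Capitals mark the GC box CCCCGCCC or its reverse GGGCGGGG, the letters of an Sp/Klf-type site. The Klf4 promoter is chr4:55532426-55532725 on the minus strand and the Klf2 promoter chr8:72318812-72319111 on the plus strand.
Klf4 promoter: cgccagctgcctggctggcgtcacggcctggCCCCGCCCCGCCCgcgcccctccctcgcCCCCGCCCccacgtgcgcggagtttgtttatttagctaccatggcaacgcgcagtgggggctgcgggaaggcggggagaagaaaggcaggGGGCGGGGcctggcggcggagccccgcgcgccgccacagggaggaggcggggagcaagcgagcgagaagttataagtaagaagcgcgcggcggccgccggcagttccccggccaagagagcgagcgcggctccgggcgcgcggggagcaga
Klf2 promoter: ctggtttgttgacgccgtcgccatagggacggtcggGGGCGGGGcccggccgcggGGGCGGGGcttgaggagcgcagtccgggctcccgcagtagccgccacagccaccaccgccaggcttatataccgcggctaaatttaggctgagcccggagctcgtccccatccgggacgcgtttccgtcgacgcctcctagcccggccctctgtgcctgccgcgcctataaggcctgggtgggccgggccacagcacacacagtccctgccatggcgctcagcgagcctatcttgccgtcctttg

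Both promoters were GC-rich, with 74.3% G or C at Klf4 and 69.3% at Klf2, against a median of 52.7% over 32851 promoters. The GC box matched 4 times at Klf4 (one pair overlapping) and 2 times at Klf2, and 17.6% of all promoters held it at least once. The Sox core letters CATTGT, searched on both strands, had 0 matches in either promoter sequence, and 12.6% of all promoters held them. The octamer ATGCAAAT, bound by Oct4 in its classical form, likewise had 0 matches in either promoter sequence, with 1.74% of promoters holding it. No match says only that these letters are not in these promoter sequences, and the rest of the 2 loci was not searched.

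At Klf4, the strongest binding of Sox and Oct4 lay far downstream of the gene, in 3 elements at +67.9, +56.5 and +54.6 kb. Each of the 3 was held by at least 17 of 18 libraries and was among the strongest peaks in 17 of them. Over all lists, 1.01% of the 27211 sites with any peak among the strongest had such a peak in at least 17 lists. That share counts sites joined by overlap, and the +56.5 and +54.6 kb elements belong to the same site. At each of the 3, the one list without such a peak was that of Sox17 after RA. The median rank over all 18 lists was 359 at +56.5 kb, 419 at +54.6 kb and 498 at +67.9 kb, and the ranges of single libraries overlapped at all 3. In the GRCm38.p6 gene table the nearest coding neighbours of Klf4 are Rad23b on its downstream side and Actl7b on the other, with non-coding genes and pseudogenes between.

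**Figure D1:**
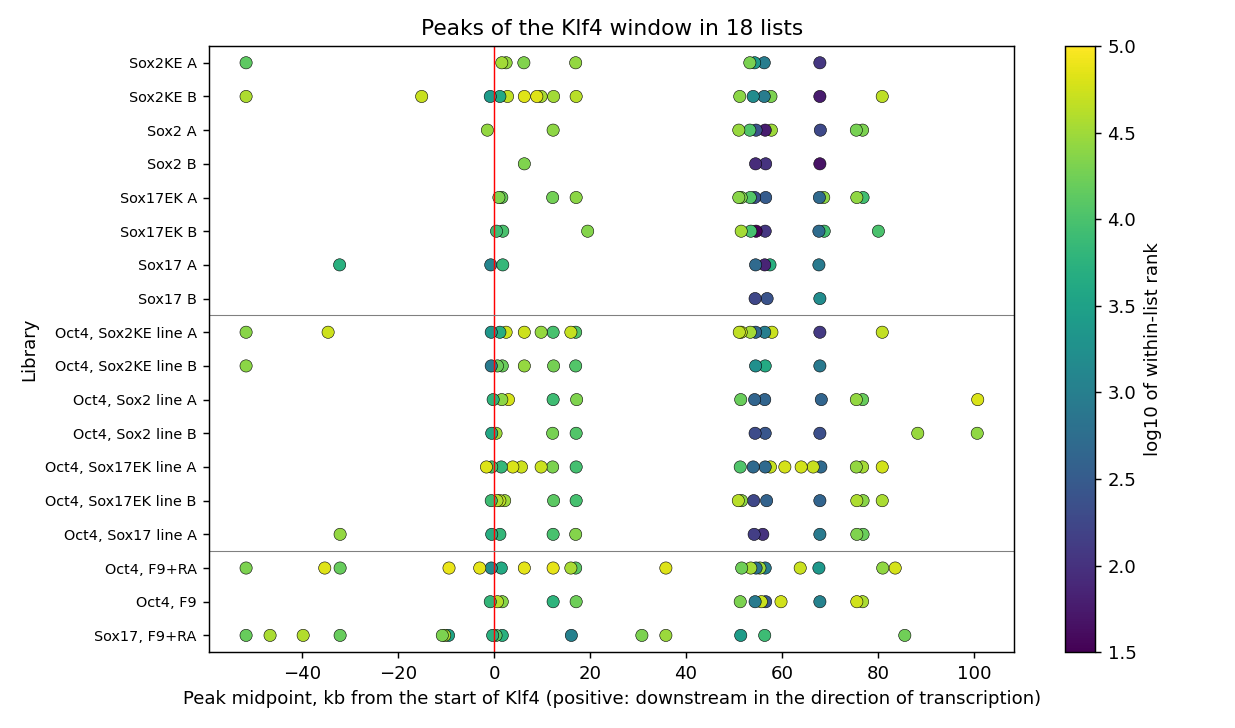
Peaks of the Klf4 window by library (rows) and by distance of the peak midpoint from the start of Klf4 in kb; colour is log10 of the within-list rank (dark: strongest) and the red line is the gene start. The dark points stand in columns near +54.6, +56.5 and +67.9 kb in all ES and both Oct4 F9 rows, and the Sox17 F9+RA row has no peak in the columns at +54.6 and +67.9 kb.

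The +67.9 kb element (median peak chr4:55476481-55477747, mm9) was among the strongest in all 15 ES libraries. Its Sox ranks were 112 and 58.5 for Sox2KE, against 188 and 47 for Sox2, and 501 and 524 for Sox17EK, against 851 and 1526 for Sox17 (A and B). The scores were 1296 and 3100 for Sox2KE, 1179 and 1465 for Sox2, 987 and 478 for Sox17EK, and 232 and 104 for Sox17. Both Sox2-derived proteins thus ranked ahead of both Sox17-derived proteins in every library, Sox2KE and Sox2 overlapped, and Sox17EK ranked ahead of Sox17 in both replicates. The Oct4 ranks were 124 and 811 in the Sox2KE line, against 428.5 and 222 in the Sox2 line, and 494.5 and 405 in the Sox17EK line, against 848 in the Sox17 line. Oct4 scores were 2415 and 906 (Sox2KE line), 3100 and 1101 (Sox2 line), 3100 and 1923 (Sox17EK line), and 861 (Sox17 line). Oct4 ranks of the lines overlapped, apart from the Sox17 line, whose single library had the lowest place by rank number. In percent of list length, Sox2KE line B (2.47%) stood behind the Sox17 line (2.37%).

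The +56.5 kb element (chr4:55488045-55489025) was the one Klf4 element with a peak in all 18 lists. The Sox ranks were 921 and 904 for Sox2KE, against 60 and 104 for Sox2, and 323 and 113 for Sox17EK, against 70 and 245 for Sox17. The scores were 655 and 1568 for Sox2KE, 1611 and 1137 for Sox2, 1207 and 854 for Sox17EK, and 792 and 285 for Sox17. Sox2KE therefore ranked behind all 6 other Sox libraries of ES cells by rank number, and Sox17EK and Sox17 overlapped. As percent of list length, both Sox2KE libraries (2.78% and 1.26%) stood ahead of Sox17 B (4.2%). Oct4 ranked 973 and 4166.5 in the Sox2KE line, against 428.5 and 276.5 in the Sox2 line, and 494.5 and 395 in the Sox17EK line, against 99 in the Sox17 line. Oct4 scores were 1118 and 442 (Sox2KE line), 3100 and 1029 (Sox2 line), 3100 and 1946 (Sox17EK line), and 2101 (Sox17 line). Here too the Sox2KE line held the lowest places. The places of the other lines depend on ties: Sox2 line A and Sox17EK line A were among 690 and 862 peaks of their lists with the same score of 3100, which share the mean ranks 428.5 and 494.5. At their best rank these tied peaks stand at 84 and 64, ahead of the 99 of the Sox17 line.

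The +54.6 kb element (chr4:55489995-55491209) showed the lowest places by rank number for Sox2KE again. Its Sox ranks were 2403 and 1543 for Sox2KE, against 241 and 85 for Sox2, and 220 and 34 for Sox17EK, against 494 and 174 for Sox17. The scores were 399.7 and 1269.6 for Sox2KE, 1068 and 1195 for Sox2, 1412 and 1227 for Sox17EK, and 310.2 and 337 for Sox17. Sox2KE ranked behind every other Sox library of ES cells by rank number, and the ranges of Sox17EK and Sox17 overlapped. With rank as percent of list length, Sox2KE B (2.15%) stood ahead of Sox17 A (4.8%) and Sox17 B (2.98%). Oct4 ranked 410 and 1742 in the Sox2KE line, against 428.5 and 201 in the Sox2 line, and 494.5 and 174 in the Sox17EK line, against 137 in the Sox17 line. Oct4 scores were 1565 and 685 (Sox2KE line), 3100 and 1125 (Sox2 line), 3100 and 2642 (Sox17EK line), and 1870.4 (Sox17 line). The B library of the Sox2KE line stood last, and its A library ranked ahead only of the 2 tied libraries, not at their best ranks of 84 and 64. In percent of list length, that A library (0.75%) stood behind the tied libraries (0.68% and 0.724%). No test was run between a mutant and its own wild type, since 2 against 2 libraries cannot pass a threshold of 0.05. For orders of single proteins or lines, above and below, the share of all sites with the same order was not counted. None of these orders can therefore be called particular to the Klf4 and Klf2 loci.

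Lysine and glutamate proteins were compared at the sites by an exact two-sided permutation test on log10 rank, with 4 against 4 Sox libraries and 4 against 3 Oct4 libraries, adjusted over all sites tested (Benjamini-Hochberg). Both designs have a smallest possible p of 0.0286, and no site in the genome reached an adjusted p of 0.05 in either (930 of 3967 Sox sites and 683 of 6449 Oct4 sites had an unadjusted p under 0.05). A site was counted as separated when every library of one class ranked ahead of every library of the other. Of the 4 sites tested for Sox, 2 at Klf4 and 2 at Klf2, 0 were separated in either direction. Over all Sox sites, 19.7% were separated with lysine ahead and 3.73% with glutamate ahead.

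At the Klf4 site that joins +56.5 and +54.6 kb (chr4:55486694-55492051), the mean log10 rank of Sox was 1.90 ± 0.34 for lysine and 2.50 ± 0.55 for glutamate (SD, n = 4 each), a difference of -0.61 (exact permutation p = 0.171, adjusted p = 0.413). The geometric mean ranks were 78.6 for lysine and 317 for glutamate. At the +67.9 kb site (chr4:55475908-55477947) they were 219 for lysine and 304 for glutamate, with a log10 difference of -0.14 (exact permutation p = 0.743, adjusted p = 0.881). Neither difference was larger than the spread between libraries could give. With the elements kept apart, a definition chosen after the data were seen, the +54.6 kb element gave -0.83 (exact permutation p = 0.0857, adjusted p = 0.322). Under that definition the +56.5 kb element gave -0.45 (exact permutation p = 0.229, adjusted p = 0.558).

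For Oct4, the same 2 Klf4 sites differed by -0.15 (+56.5 and +54.6 kb joined; exact permutation p = 0.743, adjusted p = 0.844) and -0.07 (+67.9 kb; exact permutation p = 0.83, adjusted p = 0.905). When tied peaks took their best rank, a setting chosen after the data were seen, these differences were -0.55 (exact permutation p = 0.114, adjusted p = 0.386) and -0.47 (exact permutation p = 0.171, adjusted p = 0.415). With peaks joined by midpoints within 200 bp, the +56.5 kb site differed by -0.87 and was separated with lysine lines ahead (exact permutation p = 0.0286, adjusted p = 0.296). That setting leaves out the Sox17 line peak of rank 99, which covers the element but is wide, with its midpoint at +56 kb. Of 6 sites tested for Oct4, 3 per locus, 1 was separated, at Klf2, with lysine lines ahead. Over all Oct4 sites, 9.26% were separated with lysine lines ahead and 6.95% with glutamate lines ahead.

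**Figure D2:**
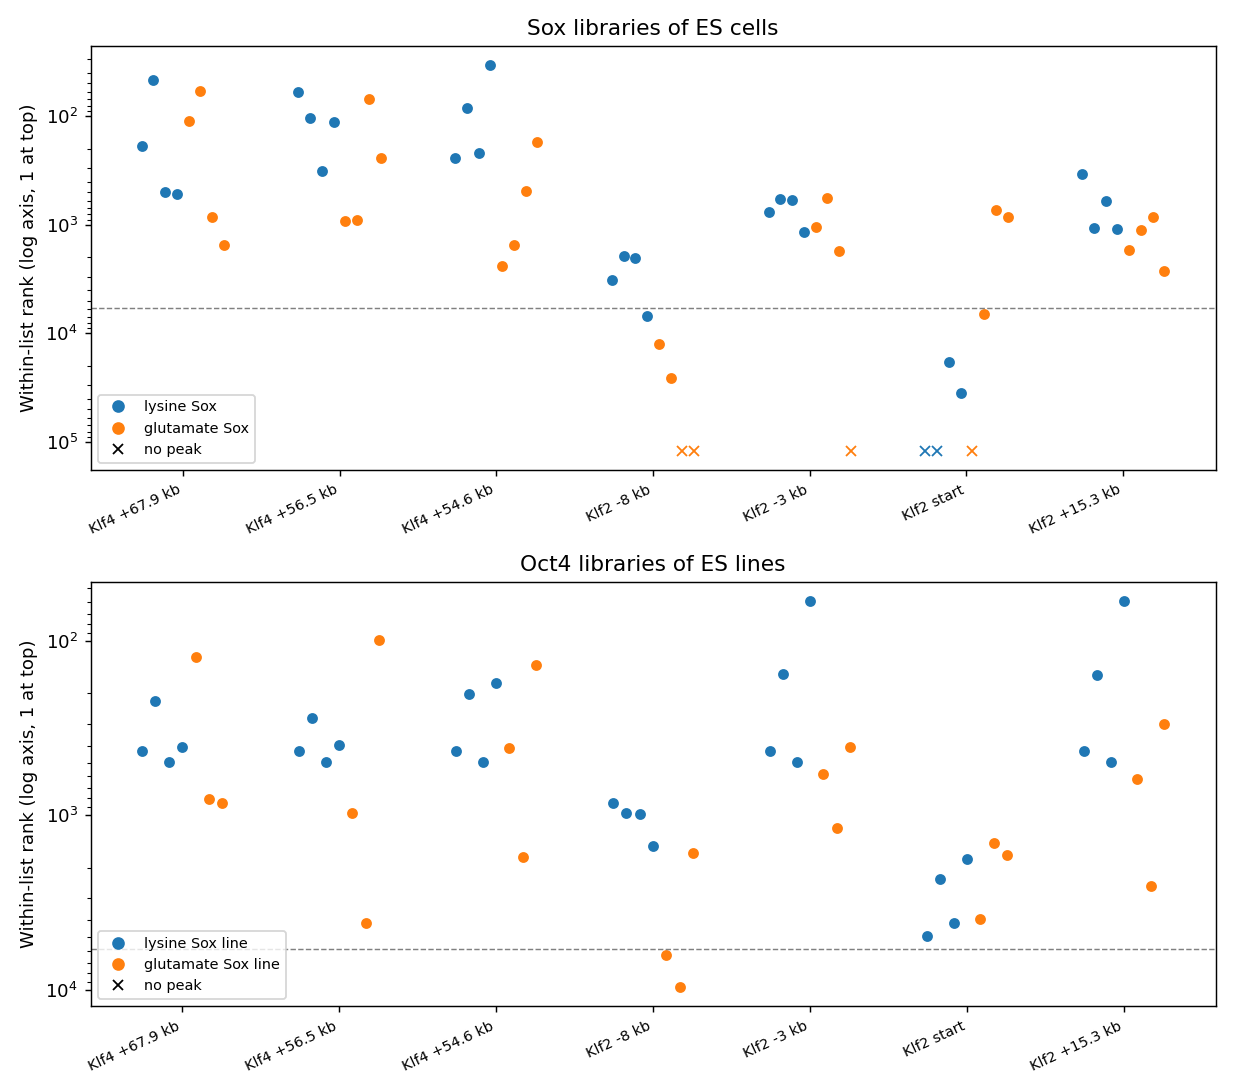
Within-list rank (log axis, 1 at the top) of each ES library at the elements held by at least 15 of 18 libraries; upper panel Sox libraries, lower panel Oct4 libraries, with blue for lysine proteins or lines and orange for glutamate, crosses for no peak, and the dashed line at rank 5836. The colours mix at the Klf4 elements, and at Klf2 -8 kb the blue points lie above the orange points in both panels. The 2 orange crosses there in the Sox panel are Sox17, and the list of Sox17 B is too short to place it behind Sox17EK B.

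At the Klf4 gene itself binding was weaker and followed another order. The element at the start (-0.6 kb, chr4:55544935-55546267) was held by 12 libraries and was among the strongest in 8. Among Sox libraries of ES cells, Sox2KE B ranked 2553 there (score 1009.7) and Sox17 A ranked 1220 (score 189.6), and neither Sox2 library, neither Sox17EK library, nor Sox2KE A or Sox17 B had a peak covering it. A weak Sox2 A peak lay beside it, at -1.4 kb (rank 26957.5). Oct4 had a peak there in all 7 ES libraries. Oct4 ranked 2218 and 848 in the Sox2KE line, against 5943 and 3884 in the Sox2 line. It ranked 9975 and 8265 in the Sox17EK line, against 4856 in the Sox17 line. The mutant and wild type of each pair did not overlap, with glutamate lines ahead in both pairs, but Sox2 line B ranked ahead of the Sox17 line. The share of all Oct4 sites with such pairs was not counted, and groups this small can separate by chance. Over the classes, mean log10 rank was 3.72 ± 0.09 for lysine lines (SD, n = 4) and 3.32 ± 0.38 for glutamate lines (SD, n = 3), a difference of 0.40 (exact permutation p = 0.0571, adjusted p = 0.34).

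The other Klf4 elements were weaker. Elements at +1.8 kb (12 libraries) and +0.5 kb (11 libraries) lie next to the start, and were among the strongest in 4 and 3 libraries. The +53.5 kb element was held by 11 libraries, 5 of them among the strongest, through wide peaks that also covered +54.6 kb. The +17.1 and +12.3 kb elements were each held by 12 libraries, all 7 Oct4 libraries of ES cells, both Oct4 libraries of F9 cells and 3 Sox libraries, and were among the strongest in 0. The elements at +76.9 and +75.5 kb were held by 7 libraries each, at +57.8, +6.3 and -51.7 kb by 6 each, and at +51.4 kb by 10. At +76.9 and +75.5 kb these libraries were Sox2 A, Sox17EK A, Oct4 in the Sox2 line A, both Oct4 libraries of the Sox17EK line, Oct4 in the Sox17 line and Oct4 in F9 cells, and the Sox2KE line had none. At -51.7 kb the ES libraries with a peak were the 4 of the Sox2KE line, Sox2KE and Oct4, all beyond the strongest peaks, with ranks between 13371 and 36720. Such ranks lie beyond the length of both Sox17 lists of ES cells (10301 and 5836 peaks), so absence cannot be read there. These patterns of presence were picked after the data were seen, and their share over all sites was not counted.

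At Klf2, binding was spread over elements on both sides of the gene, and the strongest 2 were at -3 and +15.3 kb. The -3 kb element was held by 16 libraries with a median rank of 678. The +15.3 kb element was held by 17 libraries with a median rank of 963.5. Next came -8 kb (15 libraries, median rank 4289.5) and the gene start (15 libraries, median rank 4985.5), and the ranges of neighbours in this order overlapped. The nearest coding neighbours of Klf2 in the GRCm38.p6 table are Ap1m1 before its start and Eps15l1 after its end.

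**Figure D3:**
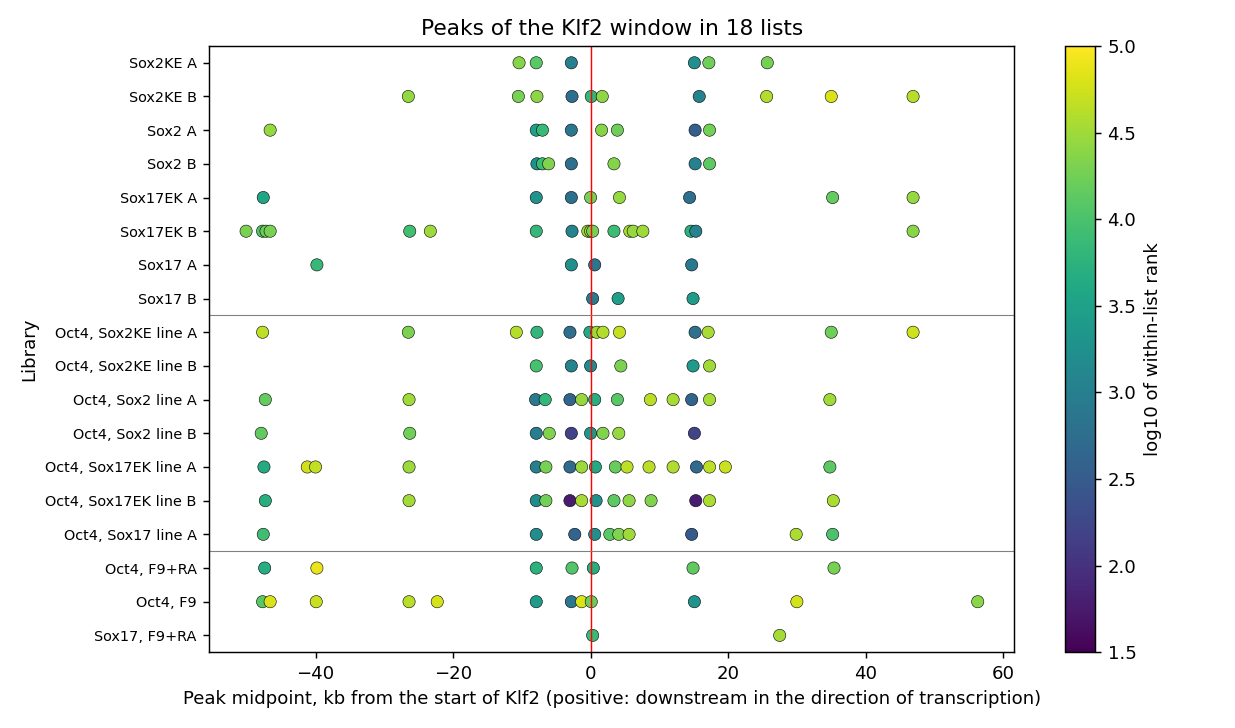
Peaks of the Klf2 window by library (rows) and by distance of the peak midpoint from the start of Klf2 in kb; colour is log10 of the within-list rank (dark: strongest) and the red line is the gene start. Columns near -8, -3 and +15.3 kb are filled in most ES rows and in both Oct4 F9 rows, and the Sox17 F9+RA row holds 2 peaks in all.

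The -3 kb element (chr8:74839684-74840735, mm9) had Sox ranks of 1040 and 570 for Sox2KE, against 764 and 577 for Sox2. Sox17EK ranked 592 and 1161, against 1743.5 for Sox17 A and no peak in Sox17 B. The scores were 628 and 1841 for Sox2KE, 704 and 641 for Sox2, 914 and 327 for Sox17EK, and 156 for Sox17 A. Sox2KE and Sox2 overlapped and Sox17 stood last. Oct4 ranked 581 and 1183 in the Sox2KE line, against 428.5 and 155 in the Sox2 line, and 494.5 and 59.5 in the Sox17EK line, against 407 in the Sox17 line. The Oct4 scores were 1364 and 799 (Sox2KE line), 3100 and 1211 (Sox2 line), 3100 and 3100 (Sox17EK line), and 1207 (Sox17 line).

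The +15.3 kb element (chr8:74857019-74859131) ranked 1695 and 1125 for Sox2KE, against 343 and 1075 for Sox2. It ranked 603 and 1092 for Sox17EK, against 852 and 2640.5 for Sox17. The scores were 493 and 1445 for Sox2KE, 951 and 487 for Sox2, 905 and 337 for Sox17EK, and 231 and 77.2 for Sox17. Both Sox2KE libraries ranked behind both Sox2 libraries by rank number, and Sox17EK and Sox17 overlapped. With rank as percent of list length, Sox2KE (5.12% and 1.57%) and Sox2 (1.06% and 4.49%) overlapped too. Oct4 ranked 621 and 2532 in the Sox2KE line, against 428.5 and 158 in the Sox2 line, and 494.5 and 59.5 in the Sox17EK line, against 302 in the Sox17 line. Oct4 scores were 1333 and 578 (Sox2KE line), 3100 and 1202 (Sox2 line), 3100 and 3100 (Sox17EK line), and 1370.5 (Sox17 line). The Sox2KE line held the last 2 places for Oct4 at -3 kb and at +15.3 kb by rank number. In percent of list length, its A library at -3 kb (1.06%) stood ahead of the Sox17 line (1.14%).

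The Sox test gave no separation at either Klf2 site. At the site of -3 kb, which overlap joins to the gene start (chr8:74839179-74849305), geometric mean ranks were 742 for lysine and 777 for glutamate (log10 difference -0.02, exact permutation p = 0.914, adjusted p = 0.978). That site takes the ranks of Sox17 from its peaks at the gene start. With the elements kept apart, the -3 kb element had 742 for lysine and 1570 for glutamate (log10 difference -0.33, exact permutation p = 0.257, adjusted p = 0.558). At +15.3 kb (chr8:74856094-74860698) they were 702 for lysine and 1440 for glutamate (log10 difference -0.31, exact permutation p = 0.114, adjusted p = 0.361). For Oct4, the geometric mean ranks at the -3 kb site were 210 in lysine lines and 654 in glutamate lines (log10 difference -0.49, exact permutation p = 0.2, adjusted p = 0.462). At +15.3 kb they were 211 in lysine lines and 780 in glutamate lines (log10 difference -0.57, exact permutation p = 0.2, adjusted p = 0.462).

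These Oct4 values depend on how tied scores are ranked. Peaks tied at 3100 numbered 690 and 5 in the Sox2 line and 862 and 88 in the Sox17EK line (A and B). In glutamate lines they numbered 44 and 5 (Sox2KE line) and 19 (Sox17 line). At -3 and +15.3 kb only libraries of lysine lines had a score of 3100, so the best rank moved lysine lines alone. With tied peaks at their best rank, all 3 Klf2 sites tested were separated with lysine lines ahead, against 9.88% of all Oct4 sites under the same setting (6.81% with glutamate lines ahead). The differences were then -1.03 at -3 kb and -1.11 at +15.3 kb (exact permutation p = 0.0286 for each, the smallest this design can give, and adjusted p = 0.289 for each). No Klf4 site was separated under that setting.

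The -8 kb element of Klf2 (chr8:74834734-74835513) was the site with separated Oct4 classes. Oct4 ranked 6319.5 and 9658 in the Sox2KE line, against 857 and 977 in the Sox2 line. It ranked 985 and 1497 in the Sox17EK line, against 1655 in the Sox17 line. The Oct4 scores were 467 and 236 (Sox2KE line), 2954 and 620.5 (Sox2 line), 3006 and 1021 (Sox17EK line), and 605 (Sox17 line). All 4 lysine libraries ranked ahead of all 3 glutamate libraries, with Sox17EK line B and the Sox17 line close together. Mean log10 rank was 3.02 ± 0.11 in lysine lines (SD, n = 4) and 3.58 ± 0.32 in glutamate lines (SD, n = 3), a difference of -0.56. The exact permutation p was 0.0286, the smallest possible, and did not pass after adjustment (adjusted p = 0.27).

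Sox peaks at -8 kb were found in all 4 lysine libraries and in 2 of 4 glutamate libraries. Sox2KE ranked 12576 and 25602.5, against 3203 and 1943 for Sox2. Sox17EK ranked 2008 and 6852.5, against no peak in either Sox17 library. The scores were 123 and 195 for Sox2KE, 331 and 363 for Sox2, and 446 and 118 for Sox17EK. Too few Sox libraries (3) had this peak among their strongest for the site to enter the Sox test. The Sox17 lists are the 2 shortest, with 10301 and 5836 peaks, so a Sox17 peak as weak as that of Sox2KE would lie beyond their length, and Sox17 B cannot be placed behind Sox17EK B.

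The start of Klf2 (chr8:74842374-74843920) was ordered otherwise. Sox17 ranked 724 and 848 there (scores 254 and 143), and Sox17EK 18437 and 35655.5 (scores 70.7 and 51.9). A stronger Sox17EK B peak lay beside the anchor, at +0.3 kb (rank 18500.5, score 76.9). Sox2KE had a peak in B alone, at rank 6666 (score 605), and Sox2 had none in either library. Both Sox17EK libraries thus ranked behind both Sox17 libraries at the Klf2 start, whereas at -8 kb the mutant had peaks and Sox17 none. Oct4 ranked 3931 and 1450 in the Sox2KE line, against 4944 and 2325 in the Sox2 line, and 4143 and 1782 in the Sox17EK line, against 1689 in the Sox17 line. These ranges overlapped, with geometric mean ranks of 3040 in lysine lines and 2130 in glutamate lines (log10 difference 0.15, exact permutation p = 0.371, adjusted p = 0.599, elements kept apart).

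The remaining Klf2 elements were weaker. Elements at -47.6 kb (10 libraries) and -46.6 kb (8 libraries) were held by wide peaks that in part covered both, and were among the strongest in 4 and 3 libraries. At -47.6 kb, Oct4 ranked 4301 and 5032 in the Sox17EK line, against 8559 in the Sox17 line, and 45284 in the Sox2KE line A, with no peak in its B, against 14693 and 14051.5 in the Sox2 line. Both Sox17EK libraries held a Sox peak there, at ranks 3785.5 and 11048, and no Sox2KE, Sox2 or Sox17 library had a peak covering the anchor. A weak Sox2 A peak lay beside it, at -46.6 kb (rank 28051.5). Rank 11048 is beyond the length of both Sox17 lists (10301 and 5836 peaks). The elements at +1.8 kb (9 libraries), +4.2 kb (10) and +17.3 kb (9) were among the strongest in 5, 1 and 1 libraries. Those at -26.3 and +35.2 kb, with 8 libraries each, were among the strongest in 0.

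In F9 cells, Oct4 ranked nearer the top after RA at both gene starts, and further down at most of the distal elements that were strongest in ES cells. There is 1 library per condition, so these are values without a test. At the Klf4 start (-0.6 kb) Oct4 ranked 1524 in F9+RA cells, against 6554 in F9 cells (scores 938 and 496). At the Klf2 start it ranked 5027 in F9+RA cells, against 16152.5 in F9 cells (scores 527 and 249). Oct4 at -47.6 kb of Klf2 ranked 4578 in F9+RA cells, against 12383 in F9 cells. These 3 elements stood nearer the top in F9+RA cells, although that list is the longer one.

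The 6 distal elements held by at least 15 libraries had the reverse order, with 1 exception. Among them, Klf4 +56.5 and +54.6 kb belong to the same site. A place further down with RA was also common elsewhere, as 44.6% of all sites with an Oct4 peak in both lists ranked nearer the top with RA. The share among sites with comparably strong peaks is not given here. This order therefore cannot be called particular to the Klf4 and Klf2 loci. At Klf2 -3 kb Oct4 ranked 11270.5 in F9+RA cells, against 766 in F9 cells (scores 318 and 1657), a rank 14.7 times as high in number. At Klf2 +15.3 kb it ranked 13976 in F9+RA cells, against 2051 in F9 cells (scores 270.1 and 1029), and at Klf2 -8 kb 5376 in F9+RA cells, against 2630 in F9 cells (scores 508 and 886). At Klf4 the ranks were 2323 in F9+RA cells, against 1130 in F9 cells, for +67.9 kb (scores 775 and 1398). They were 897 in F9+RA cells, against 271 in F9 cells, for +56.5 kb (scores 1191 and 2585). The exception was Klf4 +54.6 kb, where Oct4 ranked 625 in F9+RA cells, against 881 in F9 cells (scores 1373 and 1565). The 3 Klf4 enhancer-side elements thus stayed among the strongest Oct4 peaks of both lists, while Klf2 -3 and +15.3 kb were not among the strongest in F9+RA cells, against both among them in untreated cells.

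Over both loci, 15 elements had an Oct4 peak in both F9 lists, of which 9 ranked nearer the top with RA and 6 without. Over all sites with an Oct4 peak in both lists, 44.6% ranked nearer the top with RA. The count at the 2 loci is of single elements, some covered by the same wide peak, and the percentage is of sites joined by overlap. Several elements nearer the top with RA share a site: Klf4 +1.8, +0.5 and -0.6 kb, and Klf2 -47.6 and -46.6 kb. The Klf2 start joins the -3 kb site, where the best Oct4 rank was 766 in F9 cells and 5027 in F9+RA cells. Klf4 +54.6 kb likewise joins +56.5 kb. The element count thus leans more toward RA than a count by site, and cannot be set against the 44.6%.

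**Figure D4:**
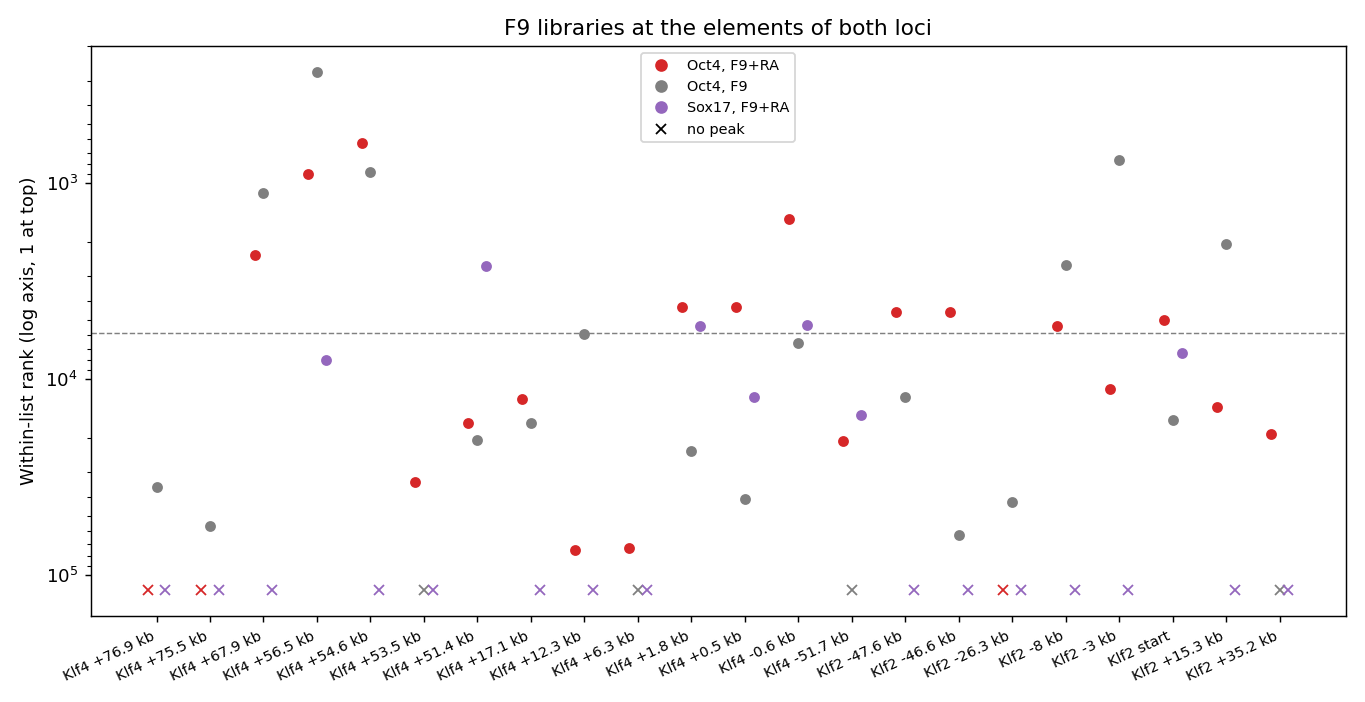
Within-list rank (log axis, 1 at the top) of Oct4 in F9+RA cells (red), Oct4 in F9 cells (grey) and Sox17 in F9+RA cells (purple) at the elements of both loci with a peak in any of the 3 lists; crosses are lists without a peak and the dashed line is rank 5836. Red lies above grey at both gene starts and grey above red at Klf2 -8, -3 and +15.3 kb, and the purple points miss most distal elements.

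Sox17 in F9+RA cells was not found at most elements that the Sox proteins held in ES cells. It had no peak covering Klf4 +67.9 or +54.6 kb, and at +56.5 kb its peak had rank 8047 and score 109. All 8 Sox libraries of ES cells, both Sox17 libraries included, had a peak at these 3 elements. At Klf2 it had 2 peaks in the whole window, at the gene start (rank 7366.5, score 115) and at +27.5 kb (rank 33501.5), and none at -8, -3 or +15.3 kb. The antibody differs between the Sox17 libraries of ES and F9+RA cells, so cell type and antibody cannot be told apart.

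The strongest Sox17 peaks of F9+RA cells at Klf4 lay elsewhere, and are named here after their values were seen. Of its 16 peaks in the Klf4 window, 5 were among the strongest. The first was at +16.1 kb (chr4:55528563-55529333, rank 1057, score 308). It overlapped no Sox peak of ES cells, and the Oct4 peak of F9+RA cells there had rank 34683. The second, at +51.4 kb (chr4:55493092-55494176), had rank 2650 and score 198, and 4 Sox and 4 Oct4 libraries of ES cells overlapped it, with ranks beyond the strongest in each. The third, at -9.5 kb (chr4:55554297-55554644), had rank 3551 and score 171, and 1 other list, Oct4 in F9+RA cells, overlapped it. The others lay at the gene start (-0.3 kb) and next to it (+1.7 kb), with ranks 5329 and 5344, where Oct4 of F9+RA cells ranked 1524 and 4288.

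Counted by site, Oct4 of F9+RA cells had a peak among its strongest at 6 sites of the 2 loci, and 3 of these also had a Sox17 peak of F9+RA cells. Over all sites with such an Oct4 peak, 69.3% had one. For Oct4 of untreated F9 cells the count was 2 of 5 sites, against 45.5% over all sites. These small counts do not set the 2 loci apart from the rest of the genome.

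Other sites had similar rank patterns over the 18 libraries, by the mean absolute difference of log10 rank. Those nearest to the Klf4 site of +56.5 and +54.6 kb were chr4:33910475-33911552 (mean difference 0.208), chr4:57700373-57704447 (0.238) and chr18:30280097-30283014 (0.282). Those nearest to the Klf2 site of -3 kb and the start were chr12:81211904-81218557 (0.198), chr14:26136265-26139078 (0.209) and chr6:72736684-72739939 (0.212). All 6 had a peak among the strongest in 17 libraries. No gene names are given for them, because the available gene table has another build.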

How the data were processed

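The authors deposited 1 peak list per library (18 of 20 samples; the 2 mock libraries were not analysed here), with mm9 positions per the submitters' processing notes. Each list has chromosome, start, end, a peak name with the MACS prefix, and a score. The authors' score was read as 10 times −log10 p, an inference from its lowest value (50 to 50.03). Start and end, the other deposited columns, are positions in bp; starts were taken to count from 0 and are printed from 1. The sources used here do not give aligner, caller settings or control, and depth was unknown.

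Peaks were ranked within each list (ties share their mean rank) and joined into sites where they overlapped by at least 1 bp. Sites with a peak among the 5836 strongest in at least 4 Sox or 3 Oct4 libraries were tested genome-wide by exact two-sided permutation of log10 rank, lysine minus glutamate, with Benjamini-Hochberg adjustment. The test was checked on simulated data. Elements by anchor were added after the data were seen, and no planned list of other pluripotency genes was used, since the gene table is not in mm9. Named were sites or elements with a peak in at least 6 libraries, the site of lowest median rank per locus, and the 3 sites most like it. The loci, the lists and the tests were chosen with earlier results of these data known. Alternatives were whole lists, percent ranks, scores of at least 100, midpoints within 200 bp, tie handling, leaving out each library, and a block on A and B. Python 3.11.15, NumPy 2.4.6, pandas 2.3.3, SciPy 1.17.1 and Matplotlib 3.10.9 were used.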

Additional observations from a re-analysis of the deposited data

Results flagged for a closer look

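Ranks of each group of 4 libraries were searched for 1 library far from the others (gap over range above Dixon's critical value), in 18 groups. For untied values chance would mark about 1 group in 20, but that rate does not hold for ranks set to a limit. At the Klf4 start (chr4:55541819-55546861), Oct4 in Sox2 line B had rank 3884 while the other 3 lysine libraries stood at the limit of 5837, a gap over range of 1.0. At the distal Klf2 site (chr8:74793762-74797603), Sox17EK A had rank 3785.5 while the other 3 lysine Sox libraries stood at the limit of 5837, again 1.0. In both, the others were tied because ranks beyond 5836 were set to the limit, which alone fixes the gap over range at 1.0. Without the limit, the others at the Klf4 start ranked 5943 (Sox2 line A), 6808 (Sox17EK line A) and 8265 (Sox17EK line B). At the Klf2 site Sox17EK B ranked 11048 and Sox2 A 28051.5, and Sox2 B had no peak. Whether either library would be flagged without the limit was not tested.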

How the results depend on the processing

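The number of separated Sox sites at Klf2 was 0, and became 1 (lysine ahead) with a replicate block on A and B (26.1% of all sites separated in either direction, against 23.4% as reported) and ranged from 0 to 1 when a library was left out (1 without Sox17 A, 28.1% of all sites). Separated Oct4 sites at Klf2 numbered 1 of 3 (16.2% of all sites), and became 3 with ranks as percent of the list (18.7%), 3 with tied scores at their best rank (16.7%) and 2 of 4 with midpoints within 200 bp (14.6%), and ranged from 1 to 3 with a library left out (3 without the Sox17 line, 47.8%). At Klf4 the Oct4 count was 0, and became 1 of 4 (lysine ahead) by midpoints, 1 (glutamate ahead) with the replicate block (26.3%), and 0 to 1 with a library left out: 1 without Sox2KE line A (lysine ahead, 19.8%), and without Sox2 line B (36.6%) or the Sox17 line (47.8%), both with glutamate ahead. A and B do not pair the libraries: correlations of A minus B between groups were -0.148 to 0.044 for Sox and -0.044 to 0.262 for Oct4. The block changed no other count. Of 144 recomputed values of 10 site differences, 10 turned the sign, all with a library left out. With a library left out, those log10 differences ranged from -0.38 to 0.093 for Sox at Klf4 +67.9 kb, from -0.085 to 0.022 for Sox at Klf2 -3 kb, from -0.349 to 0.069 for Oct4 at Klf4 +67.9 kb, and from -0.459 to 0.163 for Oct4 at the Klf4 site of +56.5 and +54.6 kb (0.163 without Sox2KE line B). Other settings moved them further in part: Sox at Klf2 -3 kb to -0.325 by midpoints and with elements kept apart and to -0.208 with percent ranks, Sox at Klf4 +67.9 kb to -0.329 with percent ranks and -0.025 with tied scores at their best rank, Oct4 at Klf4 +67.9 kb to -0.473 with tied scores at their best rank, and Oct4 at the +56.5 and +54.6 kb site to -0.548 with that tie setting and -0.867 by midpoints (exact permutation p = 0.0286, adjusted p = 0.296). The median number of peaks per library in the Klf4 window fell to 3.0 among the strongest and 4.5 within 20 kb of the gene, and in the Klf2 window to 3.0 among the strongest. The cause of these changes was not tested. Depth was unknown, so a missing peak cannot be told from signal below a list's reach.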
